A study of Mus musculus with 18 samples.

Results

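The regulators that turn an airway progenitor into a multiciliated cell were followed across 6 sorted cell populations of the mouse trachea and lung. The set was fixed by name and holds 10 genes, found through their Entrez identifiers among the 27179 genes counted. All 10 passed the filter on low counts that left 17989 genes for testing. Each population was measured in 3 libraries, 18 in all, from untreated C57BL/6 mice that the study describes as young adult males. Tracheal basal stem cells (BSCs) were NGFR-positive cells of mice 1 to 3, and the non-basal tracheal cells were the NGFR-negative cells of the same tracheas. The lungs of mice 4 to 6 gave 4 populations. Airway cells were EpCAM-positive and CD104-positive and were split by CD24 into a CD24hi population, labelled as enriched in ciliated cells, and a CD24lo population, labelled as enriched in club cells. Alveolar cells were EpCAM-positive with low CD104, and the remaining population was EpCAM-negative. The study gives CD45 and CD31 exclusion for the alveolar gate, and none is stated for the tracheal gates. All were defined by sorting gates, so each may hold several cell types, and trachea and lung came from different mice and cannot be told apart from them. In such bulk libraries, fewer cells of a type and less RNA per cell cannot be told apart either.

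Multiciliated cells carry many motile cilia, each built on a basal body, and most of these basal bodies are made in a burst of centriole production by a cell that has left the cell cycle. The programme starts when Notch signalling falls and the geminin relatives Gmnc (also called GEMC1) and Mcidas (multicilin) act with E2F4 or E2F5 on their target genes. Trp73 encodes p73, a p53-family factor, and Myb encodes a transcription factor used early in this lineage. Foxj1, Rfx2 and Rfx3 then switch on the genes for the cilium itself. Deup1 builds the deuterosome, the platform on which centrioles are multiplied, Ccno encodes an atypical cyclin needed for that step, and Cdc20b is a relative of the mitotic activator Cdc20 that works at deuterosomes. Ccno, Mcidas and Cdc20b are neighbours on 1 chromosome, and the Cdc20b gene also carries the miR-449 precursors, whose products are known to restrain Notch signalling.

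In the mm10 build, Ccno lies at chr13:112987802-112990778, Mcidas at chr13:112993581-113000394 and Cdc20b at chr13:113034975-113121019. The mature miR-449 sequences are shown because they sit inside Cdc20b and belong to the same pathway; they come from RefSeq (GRCm38.p6), with the seed, bases 2 to 8, in capitals. Mir449b had no mature entry in the table used here.
mmu-miR-449c-5p (chr13:113036008-113036028, + strand): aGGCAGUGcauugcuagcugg
mmu-miR-449a-5p (chr13:113037549-113037570, + strand): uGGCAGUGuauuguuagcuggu
Both share the seed GGCAGUG.

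The sequence upstream of the annotated transcript starts was read for words bound by the families these regulators belong to, since several of them act on one another's genes. RefSeq's table of starts held 9 of the 10 genes, with 12 starts, and no entry for Foxj1. Several genes have more than 1 start, and the windows read for Mcidas, Cdc20b, Rfx3, the first listed starts of Trp73 and Deup1 and the second of Gmnc lie inside the span that the gene table gives for the gene itself. In the 250 bases upstream of each start, on both strands, the RFX half-site GTTGCCA was found upstream of a start of 3 genes, Ccno, Mcidas and Deup1, and of 3.66% of all 32851 starts in the table. The match lies outside the gene span in Ccno and inside it in Mcidas and Deup1. The 30 bases around each match are shown 5′ to 3′ along the gene, with the match in capitals (on the opposite strand in Deup1).
Ccno (chr13:112987572-112987601, + strand): cccgggctgcgGTTGCCAcggtgacgacag
Mcidas (chr13:112993662-112993691, + strand): ggggaagccagGTTGCCAggttggttaacg
Deup1 (chr9:15627908-15627937, - strand): ccgcgtctccaTGGCAACccactgggaacc
The longer palindromic X-box, which can contain that half-site, was found before none of the 12 starts and before 0.374% of all starts. The E2F words TTTCCCGC, TTTGGCGC, TTTCGCGC and TTTGCCGC were found before none of the 12, and at least 1 of these words was found before 1.86% of all. The forkhead word GTAAACA was also found before none of the 12 and before 3.17% of all. MYB words, which are CAACTG, the related word CAACGG and the forms of both that begin with T, stood before Gmnc, Rfx2 and Deup1 and before 23.7% of all starts. The upstream sequence of Gmnc is shown with its MYB word in capitals. It was chosen because, of the 10 regulators, Gmnc was the lowest in CD24hi relative to CD24lo cells in the data that follow.
Gmnc (chr16:26991676-26991902, - strand): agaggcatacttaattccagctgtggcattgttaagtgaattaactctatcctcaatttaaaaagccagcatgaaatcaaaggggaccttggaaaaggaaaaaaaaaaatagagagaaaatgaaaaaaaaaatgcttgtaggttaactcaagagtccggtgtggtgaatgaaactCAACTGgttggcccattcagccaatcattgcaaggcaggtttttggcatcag
A match of letters is a description of these windows and was not tested for binding.

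Libraries held 29317215 to 32993621 counted reads in trachea and 9811503 to 13208897 in lung, so that the same transcript was counted with less error in trachea. Levels are given as RPKM, reads scaled to gene length and library size, computed from the deposited counts and gene lengths with TMM-scaled library sizes. Differences are log2 values with standard errors (SE) from an edgeR quasi-likelihood fit of all 18 libraries, and each adjusted p-value was corrected over the 17989 genes by the Benjamini-Hochberg method, with a threshold of 0.05. Separate mice gave the 3 libraries of each population. The 8 ciliated cell markers on the list used here summed to 4752–5451 RPKM in CD24hi cells, 371.4–907.4 in CD24lo cells, 232.2–350 in non-basal tracheal cells, 181.5–254.1 in BSCs, 153.5–161.5 in alveolar cells and 140.7–165.2 in EpCAM-negative cells, and none was at 0 in any population. In every population most of these sums was Tppp3, at a mean of 3022 RPKM in CD24hi cells, 318.4 in CD24lo cells, 220.1 in BSCs and 205.3 in non-basal cells. By their summed levels, the 4 club cell markers were highest in CD24lo cells, where Scgb1a1 made up most of the sum, the 4 basal cell markers in BSCs, the 4 alveolar type 2 and 4 type 1 markers in alveolar cells, and the 6 stromal and endothelial and 7 blood cell markers in EpCAM-negative cells. Singly, the club markers Scgb3a2 and Cyp2f2 were highest in non-basal tracheal cells, and of the type 1 markers Hopx was highest in CD24hi and Aqp5 in non-basal cells. The blood marker Cd68 was highest in alveolar cells. The endothelial markers Pecam1 and Cdh5 stood at 64.4% and 56.5% of the EpCAM-negative mean in CD24hi cells. In CD24lo cells they stood at 86.1% and 68.7%. Their SDs in these airway gates were 64.8–68.8% of the mean. The 1 marker at 0 in every library of a population was the endothelial Cdh5 in BSCs. Basal cell markers stood at 8% of the BSC level in non-basal tracheal cells and at 3.15% in CD24lo cells, and CD24hi cells held club cell markers at 14.5% of the CD24lo level. In CD24lo replicate 1 the ciliated markers summed to 907.4 RPKM, the highest of that group, and several regulators below were also highest there.

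The CD24hi and CD24lo airway cells, sorted from the same lungs, were compared. The main fit held a mean per population and no term for the mouse, so neither this contrast nor the tracheal contrast was paired. Here 6 of the 10 were higher in CD24hi cells (Foxj1, Trp73, Rfx2, Myb, Rfx3 and Deup1), against 27.8% of all genes tested. Another 2, Gmnc and Mcidas, were lower in CD24hi cells, against 27.2% of all genes. Ccno and Cdc20b did not pass the test. The median log2 difference of the 10 was 1.85, beside -0.06 over all genes tested. Markers of other cell types moved as well. All 4 club, 4 basal and 4 alveolar type 2 markers were lower in CD24hi cells, with median log2 differences of -2.47, -3.23 and -2.09. All 8 ciliated markers were higher (median 3.18). Of 4 type 1 markers 1 was higher and 2 lower. Of 6 stromal and endothelial markers 4 were lower, and of 7 blood markers 1 was higher. The part of these cells in the lung results was not tested.

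**Figure D1:**
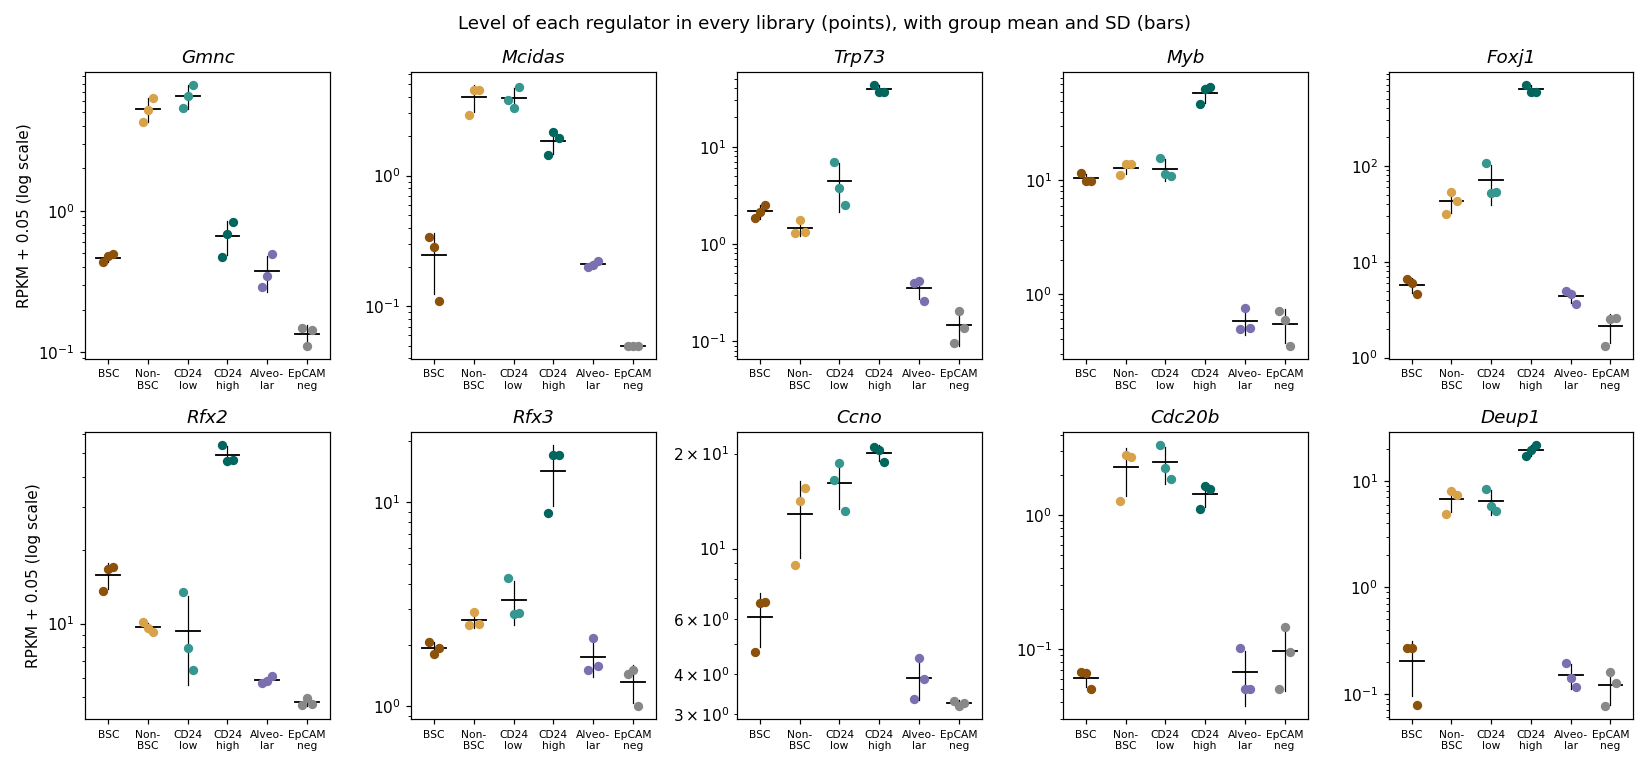
RPKM plus 0.05 on a log axis for the 10 regulators in BSCs, non-basal tracheal cells (Non-BSC), CD24lo, CD24hi, alveolar and EpCAM-negative cells; points are the 3 libraries of each group and bars the mean and SD. Gmnc and Mcidas are high in non-basal and CD24lo cells and lower in CD24hi cells, whereas Foxj1, Trp73, Myb and the RFX genes are highest in CD24hi cells.

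Gmnc, the gene at the head of the programme, stood at 0.425, 0.635 and 0.790 RPKM in the CD24hi libraries and at 5.30, 6.44 and 7.78 RPKM in the CD24lo libraries. The groups were far apart, with every CD24lo library above every CD24hi library. The fitted log2 difference, CD24hi minus CD24lo, was -3.40 with an SE of 0.22 (adjusted p = 1.71e-09), a level 10.6 times as high in the mean of CD24lo cells. Mcidas, which acts after Gmnc, stood at 1.38, 2.11 and 1.87 RPKM in CD24hi cells and at 3.76, 3.21 and 4.70 RPKM in CD24lo cells. Again no library crossed to the other side. Its log2 difference was -1.12 with an SE of 0.30 (adjusted p = 0.00553).

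Trp73 and Myb, also upstream factors, went the other way. Trp73 stood at 43.1, 36.8 and 36.5 RPKM in CD24hi cells and at 6.97, 3.72 and 2.46 RPKM in CD24lo cells, with replicate 1 the highest of the CD24lo libraries. The log2 difference was 3.13 with an SE of 0.26 (adjusted p = 2.13e-08). These counts cover the whole gene and do not separate the transcripts that begin at its 2 annotated starts. Myb stood at 46.7, 63.6 and 65.4 RPKM in CD24hi cells and at 15.8, 11.3 and 10.8 RPKM in CD24lo cells. The groups did not overlap and the log2 difference was 2.21 with an SE of 0.18 (adjusted p = 1.36e-08).

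Foxj1, the activator of motile cilium genes, had the highest level of the set. It stood at 697.9, 591.2 and 588.2 RPKM in CD24hi cells and at 107.7, 51.5 and 52.7 RPKM in CD24lo cells. CD24lo replicate 1 was well above the other CD24lo libraries and still far below every CD24hi library. The log2 difference was 3.15 with an SE of 0.28 (adjusted p = 4.09e-08), and 3.59 without CD24lo replicate 1. Rfx2 stood at 53.9, 46.5 and 46.8 RPKM in CD24hi cells and at 13.4, 7.91 and 6.39 RPKM in CD24lo cells, a log2 difference of 2.40 with an SE of 0.18 (adjusted p = 7.3e-09). Rfx3 stood at 8.78, 17.0 and 17.0 RPKM in CD24hi cells and at 4.21, 2.80 and 2.81 RPKM in CD24lo cells. CD24hi replicate 1 was low for Rfx3, near the midpoint between the other CD24hi libraries and CD24lo replicate 1, and the groups remained apart. The log2 difference was 2.12 with an SE of 0.23 (adjusted p = 4.45e-07).

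The genes of centriole amplification did not move as a block. Deup1 was higher in CD24hi cells, at 17.0, 19.6 and 21.5 RPKM against 8.31, 5.81 and 5.18 RPKM in CD24lo cells, with a log2 difference of 1.58 and an SE of 0.26 (adjusted p = 4.88e-05). Ccno stood at 21.0, 20.4 and 18.8 RPKM in CD24hi cells and at 16.5, 18.6 and 13.1 RPKM in CD24lo cells. The Ccno libraries did not overlap but lay close together, and the log2 difference of 0.32 with an SE of 0.19 did not pass the test (adjusted p = 0.157). It passed when the mouse was added as a replicate block, at 0.33 (adjusted p = 0.0237). Cdc20b was counted on 24, 37 and 33 reads in CD24hi cells and on 61, 38 and 27 reads in CD24lo cells, or 1.06, 1.61 and 1.52 RPKM against 3.30, 2.19 and 1.82 RPKM. Its log2 difference of -0.81 with an SE of 0.36 did not pass (adjusted p = 0.064), and reached -0.97 (adjusted p = 0.044) without CD24lo replicate 3.

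Levels of the ciliated cell markers in the CD24lo gate were set against those in the CD24hi gate. Such levels cannot separate ciliated cells within the CD24lo gate from lower expression in its other cells. All 8 markers stood in CD24lo cells at 8.61–14.2% of their CD24hi mean, with a median of 10.9%. Foxj1 and Trp73 both stood at 11.3%, inside that range. Rfx2 (18.8%), Myb (21.5%), Rfx3 (22.9%) and Deup1 (33.2%) were above it, Ccno was at 79.9%, and Cdc20b (174%), Mcidas (218%) and Gmnc (1060%) exceeded their CD24hi level. The part of ciliated cells within the CD24lo gate in these values was not tested. Without CD24lo replicate 1, an alternative chosen after seeing the data, the markers stood at 5.58–10.6% with a median of 7.41%, and Dnai1, Hydin and Tppp3 moved by more than 1.5 times (to 6.88%, 5.58% and 6.98%). Foxj1 (8.32%) and Trp73 (7.97%) were again inside the markers' range, and Rfx2 (14.6%) above it. The 8 proliferation markers summed to 4.79–6.99 RPKM in CD24hi cells and 8.65–9.70 RPKM in CD24lo cells, without overlap. Of these 8, 4 were called lower in CD24hi cells and 0 higher, beside 27.2% lower and 27.8% higher over all genes. Their median log2 difference was -0.66, and their part in the lung results was not tested.

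**Figure D2:**
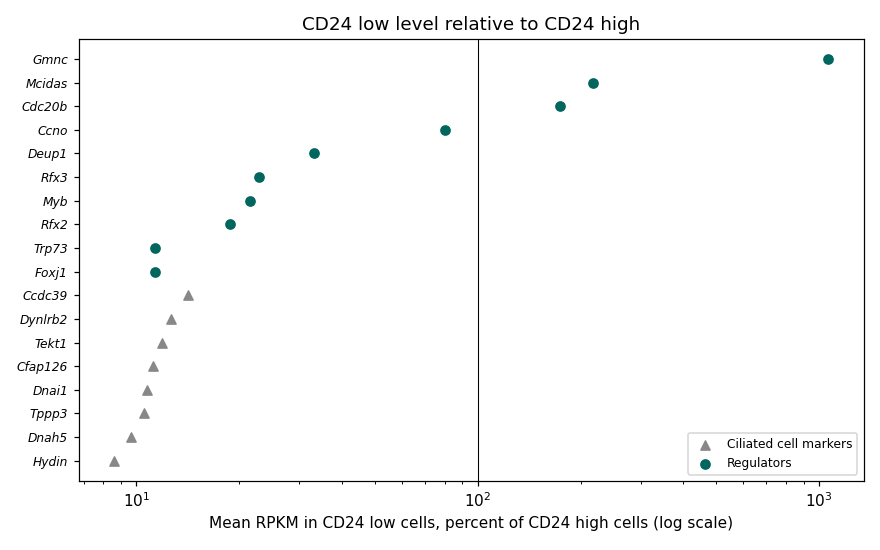
Mean RPKM in CD24lo cells as a percentage of the mean in CD24hi cells, on a log axis, for the 10 regulators (circles) and 8 ciliated cell markers (triangles); the vertical line marks equal levels. The markers lie between 8.61% and 14.2%, and Cdc20b, Mcidas and Gmnc lie to the right of the line.

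In the trachea, the NGFR-negative cells were set against the BSCs of the same mice, the stem cells from which ciliated cells descend in this epithelium. Of the 10 regulators, 6 were higher in non-basal cells (Cdc20b, Deup1, Mcidas, Gmnc, Foxj1 and Ccno), against 26.2% of all genes tested. Rfx2 was the 1 regulator that was lower, against 21.9% of all genes. Rfx3, Myb and Trp73 did not pass the test. The median log2 difference of the 10 was 2.01, beside 0.02 over all genes. Markers of several cell types moved with them. Of the 8 ciliated markers 7 were higher in non-basal cells, by 7.2-fold to 42.1-fold, and Tppp3 was not called. All 4 club markers were higher (Scgb1a1 by 46-fold) and all 4 basal markers lower. Of 6 stromal and endothelial markers 3 were higher, Col3a1 at 2.81 against 0.0169 RPKM, Col1a1 at 1.36 against 0.0200 RPKM and Pdgfra, and Dcn was lower. Of 7 blood markers Cd3e was higher, at 0.637 against 0.00660 RPKM, and Csf1r lower. The part of these cells in the tracheal results was not tested.

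Gmnc rose from 0.383, 0.426 and 0.443 RPKM in BSCs to 4.25, 5.12 and 6.27 RPKM in non-basal cells, a log2 difference of 3.64 with an SE of 0.21 (adjusted p = 3.46e-10). Mcidas rose from 0.290, 0.235 and 0.0600 RPKM to 2.87, 4.48 and 4.50 RPKM, a log2 difference of 4.32 with an SE of 0.34 (adjusted p = 5.18e-08). Both genes were thus scarce in every BSC library and present in every non-basal library. Trp73, in contrast, was found in BSCs at 1.79, 2.08 and 2.46 RPKM and in non-basal cells at 1.25, 1.71 and 1.28 RPKM. Its log2 difference of -0.57 (SE 0.26, adjusted p = 0.0765) did not pass the test, and with the mouse as a replicate block the value of -0.58 did (adjusted p = 0.0377). Myb was nearly level, at 11.4, 9.84 and 9.90 RPKM in BSCs and 11.1, 13.8 and 13.8 RPKM in non-basal cells, and the groups overlapped (adjusted p = 0.141, edgeR).

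Foxj1 stood at 6.48, 5.93 and 4.57 RPKM in BSCs and at 31.7, 53.8 and 42.9 RPKM in non-basal cells. The non-basal libraries varied among themselves, with replicate 1 the lowest, as it also was for Gmnc, Mcidas, Myb, Ccno, Cdc20b and Deup1 and for the summed ciliated markers. The log2 difference was 2.92 with an SE of 0.28 (adjusted p = 1.59e-07). Rfx2, also a ciliary activator, went the opposite way to Foxj1, at 13.5, 16.6 and 17.1 RPKM in BSCs and at 10.1, 9.55 and 9.21 RPKM in non-basal cells. All BSC libraries were above all non-basal libraries, with a log2 difference of -0.71 and an SE of 0.17 (adjusted p = 0.00225). Rfx3 stood at 2.02, 1.75 and 1.88 RPKM in BSCs and at 2.47, 2.86 and 2.48 RPKM in non-basal cells, which did not pass the test (log2 difference 0.46, adjusted p = 0.0954, edgeR).

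The deuterosome genes were nearly absent from BSCs. Cdc20b was counted on 1, 1 and 0 reads in the BSC libraries and on 61, 135 and 141 reads in the non-basal libraries (adjusted p = 1.56e-08, edgeR). The ratio of these sums, per scaled library size, was 203, with an exact 95% interval of 55.8 to 1680 that covers counting error only. Deup1 stood at 0.216, 0.219 and 0.0280 RPKM in BSCs and at 4.88, 7.92 and 7.26 RPKM in non-basal cells, a log2 difference of 5.41 with an SE of 0.35 (adjusted p = 1.17e-09). BSC replicate 3 held the least of Deup1 and also of Mcidas, on 3 and 5 reads. Ccno was already present in BSCs, at 4.67, 6.66 and 6.71 RPKM, and stood at 8.85, 14.1 and 15.5 RPKM in non-basal cells, a log2 difference of 1.09 with an SE of 0.18 (adjusted p = 9.19e-05). Proliferation markers moved the opposite way, summing to 57.5–65.4 RPKM in BSCs and 24.5–27.1 RPKM in non-basal cells, and their part in these results was not tested.

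**Figure D3:**
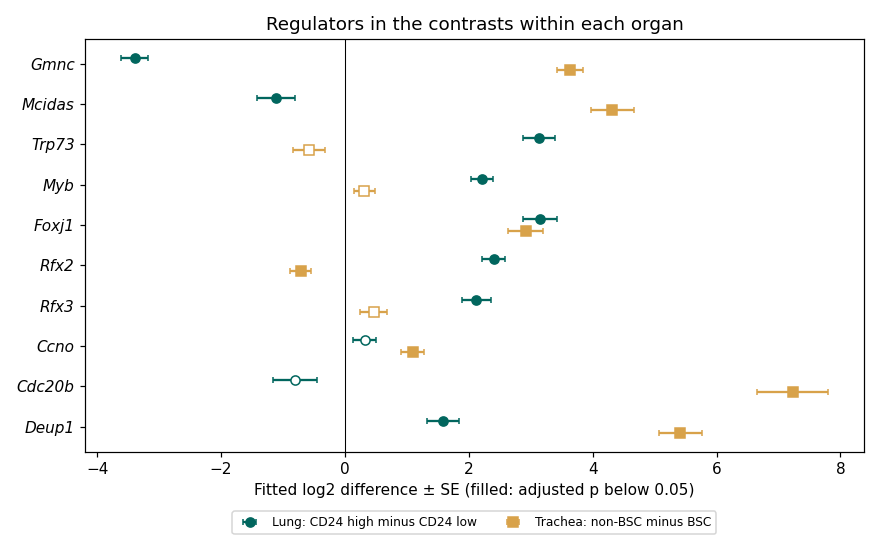
Fitted log2 differences with SE for the 10 regulators in the lung (CD24hi minus CD24lo, circles) and the trachea (non-basal minus BSC, squares); filled symbols have an adjusted p-value under 0.05. Gmnc and Mcidas lie on opposite sides of 0 in the lung and trachea, Foxj1 lies near 3 in both, and the tracheal value of Cdc20b is a fitted value that rests on 2 reads in BSCs.

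The contrasts within the organs were then set against each other in the same fit, as CD24hi minus CD24lo against non-basal minus BSC. The difference passed the test for 9 regulators. It was positive for Trp73 (3.71), Rfx2 (3.12), Myb (1.90) and Rfx3 (1.66), 4 genes against 23.9% of all genes tested. It was negative for Gmnc (-7.03), Mcidas (-5.43), Deup1 (-3.83), Ccno (-0.77) and Cdc20b, whose BSC counts are too low for a size, 5 genes against 25.2% of all genes. Adjusted p-values ran from 1.1e-11 for Gmnc to 0.0208 for Ccno. The Ccno call was lost without BSC replicate 1 (-0.62, adjusted p = 0.0589), non-basal replicate 2 (-0.70, adjusted p = 0.051) or 3 (-0.61, adjusted p = 0.0675) or CD24lo replicate 2 (-0.67, adjusted p = 0.0569), and when libraries were scaled by their totals only (-0.14, adjusted p = 0.679). Foxj1, with nearly the same log2 difference in both organs, did not pass (0.23 with an SE of 0.37, adjusted p = 0.647).

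Between organs, the non-basal tracheal cells were set against the CD24hi airway cells, the same CD24hi libraries as in the contrast with CD24lo cells. Gmnc and Mcidas were higher in non-basal cells, by 3.08 (SE 0.22, adjusted p = 1.2e-09) and 1.14 (SE 0.29, adjusted p = 0.00261) on the log2 scale, 2 genes against 31.5% of all genes. Trp73 (-4.78), Foxj1 (-3.87), Rfx3 (-2.46), Rfx2 (-2.35), Myb (-2.18), Deup1 (-1.53) and Ccno (-0.65) were lower, 7 genes against 36.9% of all genes. Cdc20b did not pass (0.67, adjusted p = 0.0852) but did without non-basal replicate 1, which held the fewest Cdc20b reads (0.97, adjusted p = 0.0107). Markers of other cell types moved as well. All 8 proliferation markers (median log2 difference 2.41) and all 4 basal markers (4.18) were higher in non-basal cells, and of 4 club markers 2 were higher. Of 6 stromal and endothelial markers 1 was higher and 5 lower, of 4 type 1 markers 1 was higher and 3 lower. Of 4 type 2 markers 3 were lower, and of 7 blood markers 2. The part of these cells in this contrast was not tested. All ciliated markers were lower, at 4.66–9.95% of their CD24hi mean, and Foxj1 stood at 6.84%.

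Each regulator was therefore expressed relative to Foxj1 in the same library, as log2 of the ratio of RPKM plus 0.05. Foxj1 itself was lower in non-basal cells (-3.87), beside a median log2 difference of -0.08 over all genes tested. A gene with an unchanged level thus rises on this scale, and a positive value does not by itself mean a rise of the gene. In CD24hi cells Gmnc was at -9.91 ± 0.55 (SD, n = 3) on this scale and in non-basal cells at -3.01 ± 0.33 (SD, n = 3), a difference of 6.90. Mcidas differed by 5.01, Cdc20b by 4.49, Ccno by 3.21 and Deup1 by 2.35, all higher relative to Foxj1 in non-basal cells. Myb (1.73), Rfx2 (1.55) and Rfx3 (1.52) followed. Of these, Ccno, Deup1, Myb, Rfx2 and Rfx3 were themselves lower in non-basal cells, and less so than Foxj1. Trp73 differed by -0.84 and was the 1 gene lower relative to Foxj1 in non-basal cells. In CD24hi cells Trp73 kept a nearly fixed ratio to Foxj1, at -4.01 with an SD of 0.006, and so did Rfx2, at -3.67 with an SD of 0.02. In CD24lo cells Trp73 was at -4.03 ± 0.32 and Rfx2 at -2.91 ± 0.19 (SD, n = 3). The groups did not overlap for any of the 9 genes, and each exact two-sided permutation test gave p = 0.1, the smallest that 3 libraries against 3 allow. Foxj1 itself did not overlap between these groups, so a gene at an unchanged level would also separate on this scale. For the genes higher relative to Foxj1, the separation and its p-value are thus no evidence of a change in the gene. Overlap on this scale was not counted over all genes, so no share stands beside these 9.

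**Figure D4:**
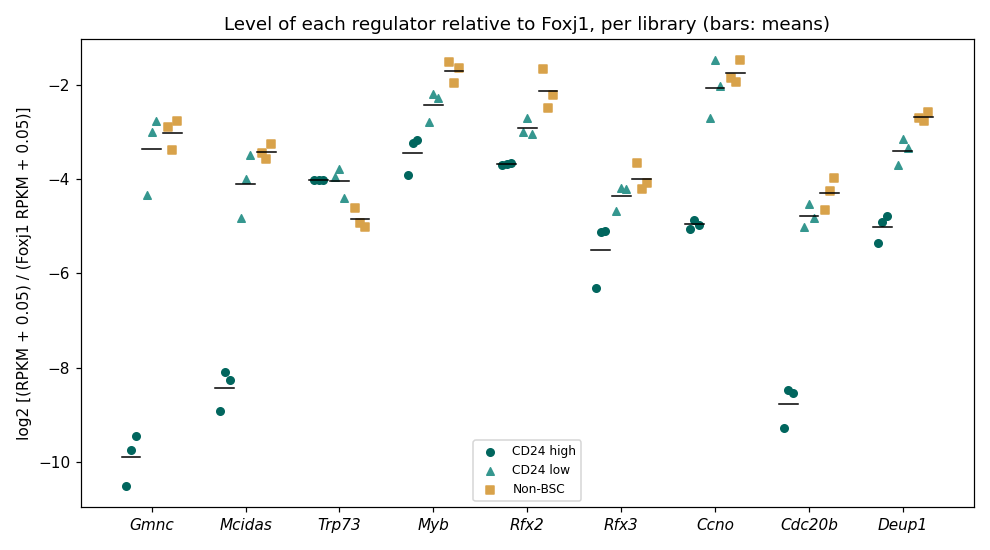
Log2 ratio of each regulator to Foxj1 (RPKM plus 0.05) in every CD24hi, CD24lo and non-basal library, with bars at the means. Gmnc, Mcidas and Cdc20b lie lowest in CD24hi cells, and Trp73 has nearly the same ratio in CD24hi and CD24lo cells.

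Alveolar and EpCAM-negative cells held little of these transcripts. All 10 regulators were higher in CD24hi than in alveolar cells, against 30.5% of all genes tested, and none was lower, against 31.4%. All 10 were likewise higher in CD24hi than in EpCAM-negative cells, against 35.6% higher and 36.7% lower over all genes. All 10 were higher in CD24lo than in alveolar cells, against 24.2% in each direction. These comparisons share libraries with each other and with the CD24hi contrast above. Mcidas was counted on 0 reads in the EpCAM-negative libraries and on 166 in the CD24hi libraries, at least 52.9-fold higher in the latter when 3 reads over the group are taken as the floor. Gmnc had the smallest difference from alveolar cells in CD24hi, at 0.425–0.790 RPKM against 0.237–0.445 RPKM (log2 difference 0.93, SE 0.30, adjusted p = 0.0122), and the groups overlapped. That call was lost without CD24hi replicate 3 (0.72, adjusted p = 0.065), without alveolar replicate 1 (0.74, adjusted p = 0.0675) and with limma voom (0.91, adjusted p = 0.0826). The Rfx2 call between CD24lo and alveolar cells, 0.68 on the log2 scale (adjusted p = 0.00625, edgeR), was lost without CD24lo replicate 1 (0.30, adjusted p = 0.0531). Rfx2 (4.57–4.88 RPKM), Ccno (3.13–3.25 RPKM) and Rfx3 (0.954–1.46 RPKM) had, with Foxj1 (1.28–2.51 RPKM), the highest levels of the set in EpCAM-negative cells.

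Ordered by group mean, CD24hi cells stood first for 7 regulators, CD24lo cells for Gmnc and Cdc20b and non-basal cells for Mcidas. The leading neighbours did not differ by the test for Mcidas (non-basal and CD24lo cells, adjusted p = 0.95, edgeR), Gmnc (CD24lo and non-basal cells, adjusted p = 0.155), Cdc20b (CD24lo and non-basal cells, adjusted p = 0.75) and Ccno (CD24hi and CD24lo cells, adjusted p = 0.157). BSCs stood second for Rfx2, below CD24hi cells and above non-basal cells, with both steps past the test. Myb was alike in non-basal, CD24lo and BSC libraries, at 12.9, 12.6 and 10.4 RPKM on average, with neither step past the test, and fell to 0.535 RPKM in alveolar cells (adjusted p = 4.25e-11, edgeR). Foxj1 and Rfx3 fell in the order CD24hi, CD24lo, non-basal, BSC, alveolar and EpCAM-negative cells. For Foxj1 every step but BSC to alveolar (adjusted p = 0.25) passed, and for Rfx3 the first step did and the 4 others did not. In the Foxj1 step from CD24lo to non-basal cells (adjusted p = 0.0275, edgeR) the groups overlapped. Only CD24lo replicate 1, at 107.7 RPKM, was above every non-basal library.

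Around the Ccno, Mcidas and Cdc20b genes, 7 other genes lie within 100 kb of Ccno. Mtrex, an RNA helicase of the nuclear exosome, and Dhx29, a translation helicase, did not pass the test between CD24hi and CD24lo cells (log2 differences 0.10 and 0.26, adjusted p = 0.355 and 0.101, edgeR). In the trachea Mtrex was slightly lower in non-basal cells (-0.26, adjusted p = 0.0197, edgeR) and Dhx29 did not pass (-0.26, adjusted p = 0.0811). Gpx8, a glutathione peroxidase family gene inside the Cdc20b span, was higher in CD24hi cells (1.15, SE 0.11, adjusted p = 7.2e-08), unlike Cdc20b, and did not pass in the trachea (0.16, adjusted p = 0.224). The miR-449 precursors were hardly counted: Mir449c had 14 reads in non-basal and 5 in CD24lo cells, Mir449b had 2 and 3, Mir449a had 1 read in non-basal cells, and all 3 were at 0 in the other 4 populations. These few reads fall in the populations where Cdc20b was highest, and, since the precursors lie within the Cdc20b gene, cannot be told apart from its transcript. The pseudogene Gm8795 was not analysed here.

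Of 12 fixed transcriptional partners and relatives, 4 were higher and 2 lower in CD24hi than in CD24lo cells, beside 27.8% and 27.2% of all genes, with a median log2 difference of 0.32. These counts are near the shares over all genes. Gmnn, which encodes geminin, the cell cycle inhibitor to which Gmnc and Mcidas are related, was lower in CD24hi cells (-2.89, SE 0.20, adjusted p = 2.33e-09) and higher in non-basal cells than in BSCs (1.31, SE 0.18, adjusted p = 1.09e-05). Trp63, the basal cell relative of Trp73, was lower in CD24hi cells (-3.28, SE 0.30, adjusted p = 5.02e-08) and in non-basal cells (-2.98, SE 0.26, adjusted p = 5.36e-08). Rfx1 (1.04), Tfdp1 (0.97) and Mybl2 (0.91) were among those higher in CD24hi cells. E2f4 was also higher there (0.59, adjusted p = 7.08e-05, edgeR), and E2f5 was not called in the lung and was higher in non-basal cells than in BSCs (0.82, adjusted p = 2.55e-05). In the trachea 4 of the 12 were higher and 5 lower, beside 26.2% and 21.9% of all genes, with a median of -0.21. Foxn4, a forkhead factor known from multiciliated cells, was higher in non-basal cells (1.84 against 0.0222 RPKM, adjusted p = 6e-09, edgeR) and did not pass in the lung. Among the other relatives, Rfx7 (-0.55), Mybl1 (-1.39), Mybl2 (-0.71) and Tfdp1 (-0.69) were lower in non-basal cells. Rfx4 was called higher there at only 0.0222 RPKM, and Rfx5 was called in neither contrast.

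Of 20 fixed genes of centriole amplification, 12 were higher and 5 lower in CD24hi cells, beside 27.8% and 27.2% of all genes, with a median log2 difference of 0.77. In non-basal cells 4 were higher and 5 lower, near the 26.2% and 21.9% of all genes, with a median of -0.04. Ccdc78, a deuterosome protein gene, was higher in both, by 3.21 (SE 0.32) in CD24hi cells and 4.04 (SE 0.39) in non-basal cells. Cep135 (2.14), Ccp110 (1.83) and Spice1 (1.62), which serve centriole assembly and length, were higher in CD24hi cells, and Spice1 was also higher in non-basal cells (0.49). Plk1, a mitotic kinase, was lower in CD24hi cells (-2.61, SE 0.20) and higher in non-basal cells (0.74, SE 0.14). Cdc20, the relative of Cdc20b, did not pass in the lung (-0.13, adjusted p = 0.602, edgeR) and was lower in non-basal cells (-1.05, adjusted p = 2.18e-05), opposite to Cdc20b. Cdk1 (-0.71) and Cep192 (-0.67) were lower in non-basal cells as well. Plk4, the kinase that starts centriole duplication, was lower in CD24hi cells (-0.66, adjusted p = 0.0184, edgeR), and Deup1's relative Cep63 was higher (0.77, adjusted p = 8.57e-07).

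Last, the genes most like each regulator were sought by the root-mean-square (RMS) difference of centred log2 CPM over the 6 group means, among 14671 genes. Foxj1 was closest to Gm11992 (RMS 0.151), Agr3 and Iqcg, where the median gene differed by 2.91. Rfx3 was closest to Ddit4l (0.113) and Ift22, and Rfx2 to Cep164 (0.214), Cnp and Chaf1a. Trp73 was closest to Cyp2s1 (0.406), Cfap45 and Ankrd65, and Myb to Slc9a2 (0.418), Rab11fip4 and Grip1. Gmnc was closest to Fut2 (0.458), Foxa3 and Slc1a1, and Mcidas to Ppp1r14d (0.264), Tstd1 and Pla2g2c. Ccno was closest to Cd55 (0.126), Trmt9b and P2rx3. Foxn4 was among the nearest for both Deup1 (Ugt8a 0.468, Foxn4, Acox2) and Cdc20b (Tspan33 0.660, Foxn4, Tstd1). Within the set, Rfx2 and Rfx3 were the closest pair (0.499), Mcidas was nearer to Cdc20b (0.897) and Gmnc (0.921) than to Foxj1, and Rfx2 and Deup1 were farthest apart (2.59).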

How the data were processed

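RNA from sorted C57BL/6 tracheal and lung cells was sequenced on an Illumina HiSeq. Rsubread (mm10 genome) and featureCounts (in-built RefSeq genes) were used by the authors, who deposited raw counts per Entrez gene with a gene length and no normalization; whether strand was used is not given in the sources used here. Symbols and coordinates came from RefSeq's GRCm38.p6 gene table, which matched 25275 of 27179 identifiers. Exons of other genes on the opposite strand cover 10.8% of Cdc20b, 6.26% of Myb and 5.06% of Trp73 exonic bases in GENCODE.

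Genes were kept where 3 or more libraries exceeded 0.2 CPM; after TMM scaling, all 18 libraries entered 1 quasi-likelihood fit (edgeR 4.0.16, R 4.3.3) with Benjamini-Hochberg adjustment. RPKM was computed here from the deposited counts and lengths. The members, lists and tests were chosen with earlier results of these data known. Named genes were the members, list genes with the 5 largest called differences or a shared gene family, neighbours within 100 kb of Ccno and the 3 nearest profiles per member, of which 1 is not reported here; E2f4 and E2f5 were named as known partners and Plk4 and Cep63 for their roles, after their values were seen. Alternatives were RLE factors, library size alone, other filters, limma 3.58.1 voom, DESeq2 1.42.0, a fit of the compared libraries, thinned tracheal libraries, a replicate block by mouse and leaving out each library.

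Same-numbered tracheal libraries, and all lung libraries of a number, come from the same mouse by the labels; deviations of paired libraries had correlations of 0.12–0.34 in trachea and 0.04–0.28 between CD24hi and CD24lo. Replicates differed beyond counting noise, with a chi-square per degree of freedom of 3.67 to 42.4 between 2 replicates. In BSCs, non-basal, CD24hi and CD24lo cells replicate 1 stood apart. Pairs with it gave 22.5–42.4 and the remaining pairs 5.49–7.88. In alveolar cells replicate 2 stood apart (41.1 and 39.2, beside 6.05). The source of these differences was not tested. On simulated counts the fit recovered nearly all large changes of well-expressed genes but missed many smaller ones, so a difference that did not pass is not shown to be absent; the recovery level that this check required was lowered after its first runs, and the fit was not altered. The series' design text names lung airways only; organ and mouse follow the sample labels.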

Additional observations from a re-analysis of the deposited data

Results flagged for a closer look

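For 9 regulators the contrast in the lung (CD24hi minus CD24lo) differed from the contrast in the trachea (non-basal minus BSC) by edgeR's test of the difference. The same test called 8839 of the 17989 genes tested. The log2 difference between the contrasts was -7.03 for Gmnc (-3.40 in lung, 3.64 in trachea, adjusted p = 1.1e-11), -5.43 for Mcidas (-1.12 and 4.32, adjusted p = 1.04e-07), -3.83 for Deup1 (1.58 and 5.41, adjusted p = 1.21e-06) and -0.77 for Ccno (0.32 and 1.09, adjusted p = 0.0208). For Cdc20b the fitted value was -8.04 (adjusted p = 5.82e-08), which rests on 2 reads in BSCs and is no measure of size. It was 3.71 for Trp73 (3.13 and -0.57, adjusted p = 2.15e-07), 3.12 for Rfx2 (2.40 and -0.71, adjusted p = 1.66e-08), 1.90 for Myb (2.21 and 0.31, adjusted p = 4.86e-06) and 1.66 for Rfx3 (2.12 and 0.46, adjusted p = 0.000301). The contrasts differ in organ, mice, gates and depth, which cannot be told apart.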

How the results depend on the processing

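Of the 1100 log2 differences of members recomputed under alternatives, 1081 kept their direction and side of the threshold. With library size alone, the median of all genes moved from -0.06 to 0.21 between CD24hi and CD24lo, from 0.02 to -0.31 between non-basal cells and BSCs and from -0.05 to 0.58 in the difference of these contrasts, so that 3233 rather than 4901 genes were lower in CD24hi cells, 2989 rather than 4720 were higher and 7780 rather than 3948 lower in non-basal cells, and 8126 rather than 4299 were higher and 2446 rather than 4540 lower in the difference. Higher genes then made up 68.4% of calls (50.5% with TMM), 27.8% (54.5%) and 76.9% (48.6%), 65.4% (49.2%) for CD24hi against alveolar and 34% (46%) for non-basal against CD24hi. Myb reversed to -0.033 in the trachea, Ccno passed between CD24hi and CD24lo (0.61, adjusted p = 0.0104, edgeR), and the Ccno difference between contrasts was lost (-0.14, adjusted p = 0.679). With library size alone, with the replicate block and with only the libraries compared, 2 members rather than 1 were lower in non-basal cells, the added one being Trp73; the last fit also called Rfx3 (0.47) and Myb (0.32). The replicate block gave 9 members called between CD24hi and CD24lo, beside 10035 of the 17989 genes tested. Between non-basal cells and BSCs it gave 8, beside 8896 of all genes. The block changed no other call of a member. It was not possible for non-basal against CD24hi, whose mice differ. Leaving out a library gave 8–9 members called in the CD24hi contrast and 7 in the trachea, beside 9153–10385 and 7395–8119 of all genes. Of 60 group means, 13 moved beyond 1 SD with library size alone. Depth limits Cdc20b, Mcidas, Deup1, Gmnc and Trp73 where at most 50 reads were counted in a group. This includes Gmnc in alveolar cells, on 42 reads.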
